A study of Mus musculus with 4 samples.

Results

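Germinal center (GC) B cells from a mouse heterozygous for Kmt2d (K) were compared, across all 31053 counted genes, with GC B cells from a wild-type (WT) mouse. The comparison took every cell that the deposited cell table places in a GC subtype: 2583 cells of the K library and 1227 of the WT library, out of 9804 such cells in the 4 libraries of the series. Each genotype is 1 library from 1 mouse. Spleens were taken 10 days after immunization with sheep red blood cells (SRBC), and B220+IgD- cells were sorted and counted by droplet 3′ single-cell RNA-seq. The K library carries the genotype label K_het_KO. In the other 2 libraries Crebbp is heterozygous (C, C_het_KO) or both genes are (CK, CK_het_DKO). The study used the Cγ1-cre driver, which acts once B cells begin to transcribe the γ1 heavy chain locus after activation. In its scheme all 4 genotypes carry the driver, so WT is Cγ1cre/+ and K adds Kmt2dfl/+. The mice were 8 weeks old and of C57BL/6J background. Cells that had not switched the driver on keep both Kmt2d alleles, so T cells, also present in the sort, carry an intact gene. The deposited names gave 645 centroblasts (CB) in K and 183 in WT, 1029 and 471 cells in transition (trans CB-CC), and 611 and 382 centrocytes (CC). Early CB numbered 190 and 38, prememory cells 93 and 145, and recycling cells 15 and 8.

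KMT2D is a histone methyltransferase of the COMPASS family that places monomethyl marks on histone H3 lysine 4 at enhancers. Its gene is among the most often mutated in lymphomas that arise from GC B cells, where mutations usually hit 1 allele. In the GC, dark zone CBs divide and mutate their antibody genes, and light zone CCs present antigen to T cells. A brief induction of Myc after T cell help selects CCs for return to the cycle, and others leave as memory or plasma cells.

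All values below are summed UMI counts of a subtype in 1 library, as CPM, counts scaled to a library total of 1000000 UMIs. A gene's log2 ratio of K over WT had the ratio of the same gene in T cells of the same libraries subtracted (2139 K and 2006 WT barcodes with 2 or more UMIs of Cd3e, Cd3d and Cd3g, none of them in the cell table). Of these barcodes, 1030 in K and 1085 in WT also held a UMI of Cd79a, Cd79b or Ms4a1. GC B markers summed to 290 CPM in K and 297 CPM in WT T cells, so the reference is not free of B cell RNA. Intervals in brackets are 95% and cover counting error only. With 1 library per genotype no test of the genotype is possible, and differences between mice, sorts and library preparations cannot be told apart from the genotype. "Past 2-fold" means a log2 value of 1 or more, or of -1 or less, and is a rule of size.

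The subtraction was needed because the K library held fewer UMIs of long transcripts in GC, non-GC B and T cells alike. In T cells the median log2 ratio went from 0.11 in the shortest of 5 length bins to -0.57 in the longest, and in CC from 0.15 to -0.59. Spearman's rho of ratio with length in T cells was -0.56 across 9532 genes for K, -0.16 across 9654 for C and -0.21 across 9927 for CK, all against the same WT library. Relative to T cells, the same bins of CC genes ran from 0.02 to -0.02. Unspliced transcripts made up 21.2% of UMIs in annotated K cells against 28.1% in WT, 27.4% in C and 25.4% in CK. Median UMIs per CC were 3811 in K and 4741 in WT, and per CB 5526 and 5502. Total UMIs were 35706099 in K and 34259440 in WT, and 17 barcodes occurred in both.

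**Figure D1:**
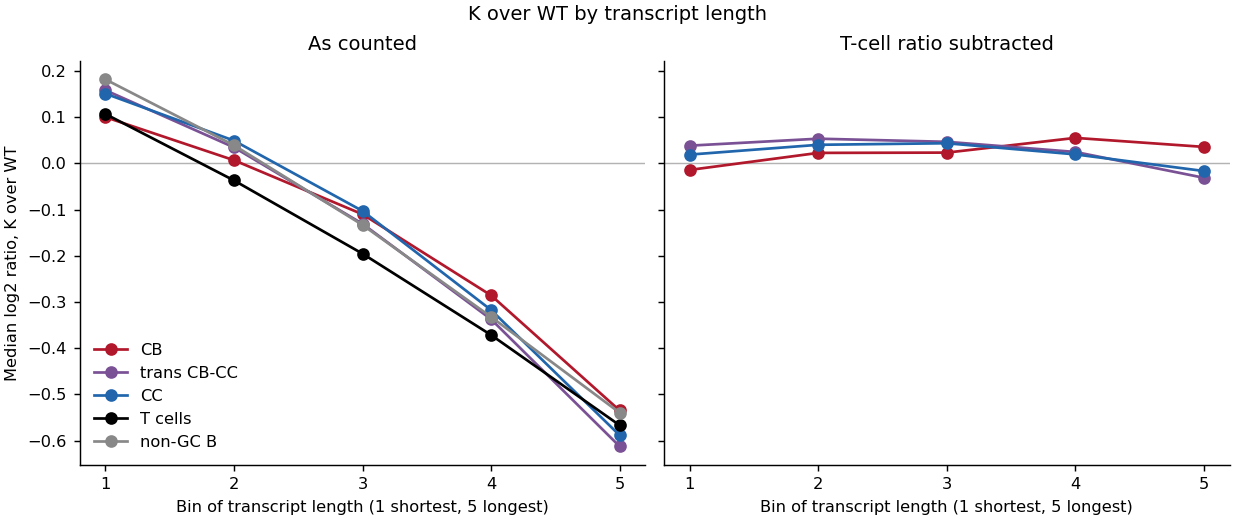
Median log2 ratio of K over WT (y) in 5 bins of transcript length with equal numbers of genes (x, 1 shortest), as counted on the left and with each gene's T cell ratio subtracted on the right, with 1 line per cell group. As counted, all 5 groups fall from above 0 to below -0.5, and after the subtraction the 3 GC subtypes stay close to 0 in every bin.

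A second feature of the libraries bears on every subtype comparison. Named cells end below 2500 detected genes (2 WT cells reach it), and the WT library had more GC cells above that limit. Unnamed cells at or above it, with less than 8% mitochondrial UMIs and fewer than 2 Cd3 UMIs, were given the most frequent name among their 25 nearest cells below the limit in the same library, an alternative chosen after the data were seen. This added 379 cells to the WT CB, 67.4% of the enlarged set, against 438 in K (40.4%). For trans CB-CC it added 392 in WT (45.4%) and 218 in K (17.5%), and for CC 36 (8.61%) and 29 (4.53%). Neighbor naming gave cells below the limit their own name in 86% of WT and 88.5% of K named cells, but in 47.4% and 67.4% of early CB and in 73.1% and 60.2% of prememory cells. The named CB and trans CB-CC of the 2 libraries are therefore differently truncated samples, and CC less so. Values after these cells were added ("with large cells") are given beside the main results.

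Kmt2d itself (chr15:98831669-98871204, minus strand, GRCm38) stood at 9.85 CPM in annotated K cells (125 UMIs, 8.20 to 11.7) and at 18.5 CPM in WT (112 UMIs, 15.2 to 22.2). C had 21.3 CPM and CK 15.1 CPM. The T cell barcodes also had less in K, 16.7 against 25.7 CPM, and so did non-GC B cells, 16.3 against 23.05 CPM. T cells keep both alleles, and many of these barcodes also held B cell UMIs. Crebbp, which is not targeted in K, was lower in the same K barcodes too, at 47.0 against 78.4 CPM. The median T cell log2 ratio in the longest length bin was -0.57. What lowers Kmt2d counts in T cells was not tested. Relative to T cells, Kmt2d was lower in K CB by the widest margin (8.53 against 24.9 CPM, -0.92 [-1.81, -0.02]), and this became -0.14 [-0.70, 0.42] with large cells. In trans CB-CC it was -0.26 [-0.98, 0.47], and in CC, where the levels were 15.98 and 16.4 CPM, 0.59 [-0.20, 1.39]. With 24 to 46 UMIs per library in each of these subtypes, the CC and trans CB-CC intervals leave out a value of -1, and that of CB holds it. Tags come from transcript 3′ ends, and the sources used here do not say which exons the floxed allele removes, so a deleted allele may still be counted. Crebbp gave -0.36 [-0.72, -0.01] in trans CB-CC and 0.05 [-0.40, 0.50] in CC. Xist had 0 UMIs in annotated and T cells of both libraries, which by a limit of 3 counts allows up to 0.495 CPM in annotated WT and 0.236 CPM in annotated K cells. The Y-linked Ddx3y (41.5 CPM in K, 71.4 in WT) and Eif2s3y (74.6 and 91.4) were present in both, whereas the study describes female mice. GC B markers summed to 1761 CPM in K CC and 1967 in WT CC, and T cell markers to 204 and 192 CPM there, against 9673 and 8500 in T cells.

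Past 2-fold relative to T cells were 47 genes higher and 18 lower among 6221 that entered in CC (at least 50 UMIs over both libraries in the subtype and in T cells, and a T cell level of at least 1 part in 10 of the subtype's), which is 0.756% and 0.289%. A gene can pass this filter through either library. In trans CB-CC it was 96 (1.3%) and 34 (0.46%) of 7384. In CB it was 145 (2.29%) and 36 (0.569%) of 6326. As counted, without the subtraction, CC had 23 higher (0.37%) and 418 lower (6.72%), trans CB-CC 43 (0.582%) and 563 (7.62%), and CB 79 (1.25%) and 399 (6.31%). Of these 3 subtypes, CC depended least on the large cells. With them, the CC counts were 51 and 24, sharing 18 and 11 genes with the first lists, and all 47 and 18 kept their sign. In CB 133 of 139 higher and 36 of 36 lower genes kept it, and in trans CB-CC 81 of 96 and 34 of 34. Each enlarged set includes the named cells themselves, so a kept sign is a weak check. The CB count of higher genes went from 145 to 45, with 9 shared, and that of trans CB-CC from 96 to 38, with 10 shared. Past the threshold in all 3 subtypes were Hist1h1b and Igha, higher, and Tax1bp3, lower. As counted in CB, Hist1h1b was at -1.49 and Igha at -0.09, so their higher values there come from the subtracted T cell ratio.

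CCs carried more Batf in K than in WT. BATF is an AP-1 family factor needed for class switching. Batf (chr12:85686669-85709087, plus strand) had 58.7 CPM in K CC (147 UMIs, 49.6 to 69.0) and 20.2 CPM in WT CC (37 UMIs, 14.2 to 27.9), with 30.8 in C and 38.4 in CK. The K interval lies above those of the other 3 libraries. The log2 ratio was 1.54 as counted, 0.14 in T cells and 1.40 [0.84, 1.99] relative to them, and 1.502 with large cells. In CB and trans CB-CC no such excess was seen, with 10.5 and 9.06 CPM in K against 9.35 and 13.1 in WT. T cells hold Batf at 63.6 CPM in K and 57.7 in WT, and T cell markers summed to 204 CPM in K CC and 192 in WT CC, against 9673 and 8500 in T cells. After every cell was thinned to 2000 UMIs (25 K and 12 WT CC left out as shallower), 6.31% of K CC (4.48 to 8.60, 37 of 586) and 3.78% of WT CC (2.08 to 6.27, 14 of 370) held a Batf UMI. So did 2.55% and 3.46% of non-GC B cells, but 1095 of 1409 of these in K and 1128 of 2227 in WT were left out as shallower. Over all non-GC B cells Batf had 17.5 CPM in K and 13.9 in WT. Unthinned shares in CC were 11.6% and 7.33%. The thinned CC shares have overlapping intervals. The 147 K UMIs lay in 71 cells and the 37 WT UMIs in 28, and the value relative to T cells after thinning was 0.84.

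Myc (chr15:61985391-61990374), the factor that marks selected CCs, followed with 36.8 CPM in K CC (92 UMIs, 29.6 to 45.1) and 18.6 in WT CC (34 UMIs, 12.9 to 26.0). C had 16.5 and CK 27.0 CPM. The relative value was 1.07 [0.43, 1.73], and 0.41 [-0.08, 0.92] with large cells, so the Myc difference is not resolved once those are included. Myc and Kmt2d lie on the same chromosome. Within 5 Mb of Kmt2d, a window that does not hold Myc, 0 of 56 genes that entered in CC were past 2-fold, where 0.756% of all genes were higher and 0.289% lower, and their median was 0.02, as over all genes. In CB 1 of 56 was higher, Tuba1b, and 1 lower, Letmd1, with a median of -0.07, where 2.29% of all genes were higher and 0.569% lower. In trans CB-CC 0 of 60 were past 2-fold, where 1.3% of all genes were higher and 0.46% lower.

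**Figure D2:**
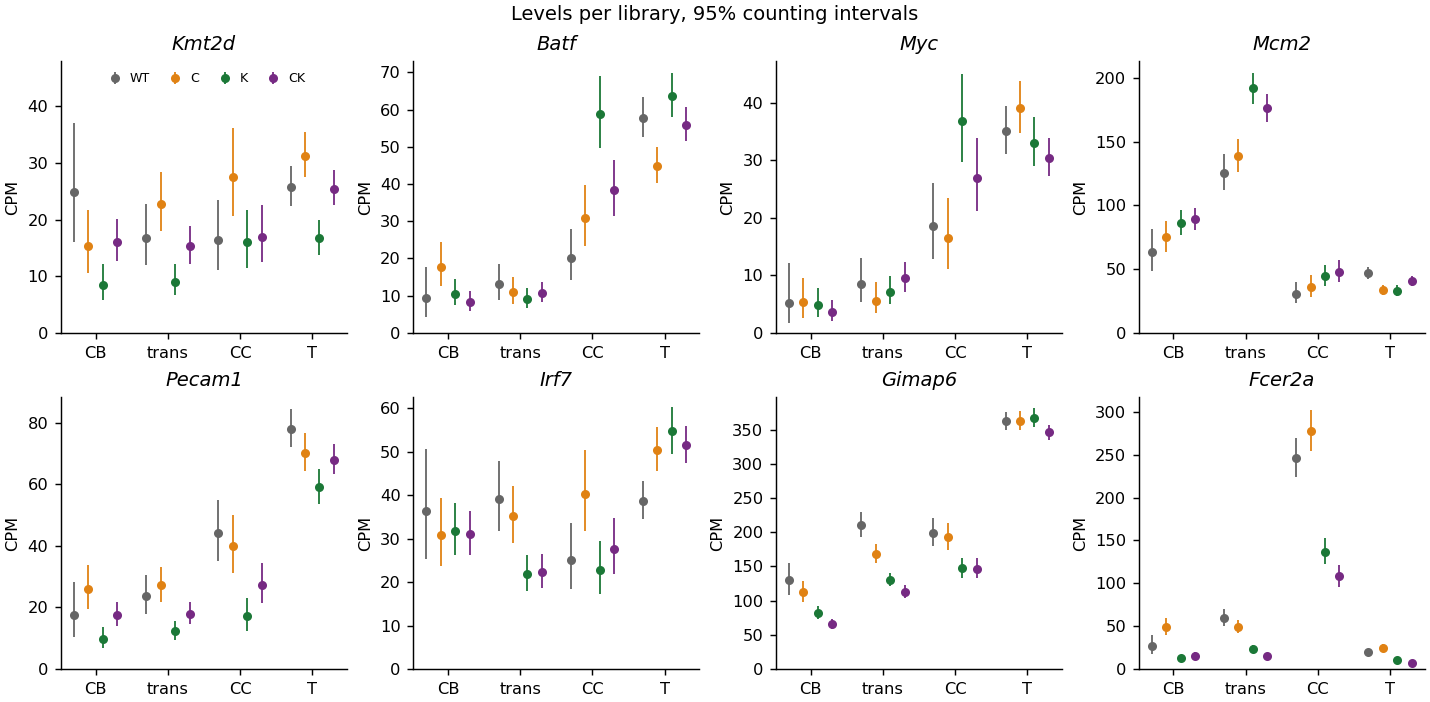
CPM (y) of 8 genes in CB, trans CB-CC, CC and T cells (x) of the 4 libraries, with points for the level and lines for the 95% Poisson interval. K CC hold Batf and Myc above WT CC, K and CK CC hold Fcer2a and Gimap6 below WT and C, and Kmt2d in K is low in T cells as well.

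**Figure D3:**
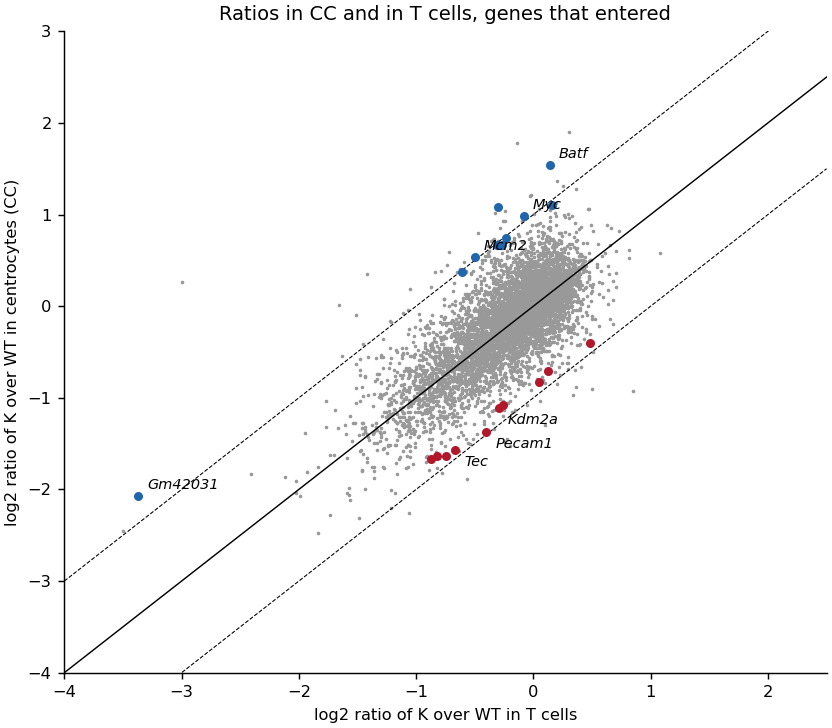
Log2 ratio of K over WT in CC (y) against that in T cells (x) for the genes that entered, with the line of equality and 2-fold lines on either side. The genes follow the line of equality, and the 10 highest (blue) and 10 lowest (red) genes named by rule lie near or beyond the 2-fold lines, with Gm42031 far down in both cell types.

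Most genes of DNA replication lay above the all-gene median in K CC. The S phase list held 26 genes, of which 21 entered, and the others had fewer than 50 UMIs in CC. Of these, 18 lay above the all-gene median of 0.02 and 3 below, with a list median of 0.40 and Mcm2 the member past 2-fold, where 0.756% of all genes were. With large cells the median was 0.53, with 20 of 23 above, and with T cells restricted to the same gene limit it was 0.19. C and CK, set against the same WT library, had medians of 0.11 and 0.13. Several members belong to the MCM2-7 helicase, the ring that unwinds DNA at replication origins, and E2F factors are its known transcriptional drivers. The motifs TTTCCCGC and TTTGGCGC were sought on either strand of the promoters (250 bases before to 50 after the start, RefSeq, GRCm38.p6). They occurred in 8 of 21 list genes with a promoter sequence (38.1%), against 486 of all 27025 genes with one (1.8%). These shares do not depend on the K or WT counts. The 3 members with the most CC UMIs among those 8 are shown, with the motif in capitals, because they carry both the sequence feature and the values that follow; they lie at chr1:128359656-128359955 (Mcm6, minus strand), chr1:20820263-20820562 (Mcm3, minus strand) and chr8:75109259-75109558 (Mcm5, plus strand).
Mcm6: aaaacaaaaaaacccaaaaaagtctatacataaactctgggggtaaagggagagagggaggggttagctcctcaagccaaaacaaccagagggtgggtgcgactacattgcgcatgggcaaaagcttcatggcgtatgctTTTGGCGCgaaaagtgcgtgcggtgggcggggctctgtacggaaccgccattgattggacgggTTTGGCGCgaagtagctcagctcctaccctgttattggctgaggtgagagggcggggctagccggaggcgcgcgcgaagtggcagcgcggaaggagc
Mcm3: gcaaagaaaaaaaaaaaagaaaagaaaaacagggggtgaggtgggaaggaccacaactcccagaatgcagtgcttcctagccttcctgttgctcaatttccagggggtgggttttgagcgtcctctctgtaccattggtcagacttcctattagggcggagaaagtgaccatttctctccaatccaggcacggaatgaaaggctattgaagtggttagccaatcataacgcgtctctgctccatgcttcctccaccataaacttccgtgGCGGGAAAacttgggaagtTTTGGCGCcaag
Mcm5: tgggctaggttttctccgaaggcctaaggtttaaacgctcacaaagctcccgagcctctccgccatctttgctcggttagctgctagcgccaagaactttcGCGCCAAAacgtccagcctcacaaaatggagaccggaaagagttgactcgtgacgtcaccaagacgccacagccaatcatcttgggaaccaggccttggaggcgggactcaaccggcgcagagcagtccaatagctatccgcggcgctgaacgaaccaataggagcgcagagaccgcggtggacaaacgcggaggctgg
A match is a description of these letters and shows no binding. Mcm2, the member past 2-fold, and Dut held neither motif, and Mcm4 had no promoter sequence. Whether the motif goes with higher values in K was not tested.

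In CC, Mcm6 had 96.3 CPM in K and 73.8 in WT, a relative value of 0.62 [0.27, 0.97]. Mcm3 had 69.1 and 58.0 CPM, 0.59 [0.19, 0.99]. Mcm5 had 61.9 and 42.1 CPM, 0.71 [0.26, 1.17]. Against all T cells, without a gene limit on them, these helicase subunits thus shared a sign with intervals that leave out 0. So did Mcm2 (44.3 and 30.6 CPM, 1.03 [0.50, 1.58], with T cells inside the gene limit 0.44) and Mcm4, whose levels as counted were alike at 50.3 and 53.6 CPM and whose 0.88 [0.44, 1.33] comes from a T cell ratio of -0.97. Mcm7, at 0.44 [-0.03, 0.92], did not leave out 0. Dut, which removes dUTP from the nucleotide pool, had 180 and 109 CPM, 0.62 [0.35, 0.89]. At the other end was Pola1, the catalytic subunit of DNA polymerase alpha, at -0.47 [-1.39, 0.41] on 20 K UMIs. With large cells Mcm6, Mcm3, Mcm5 and Dut were at 0.57, 0.49, 0.86 and 0.65. Genes of G2M were less uniform. Of 28, 10 entered, 7 above and 3 below, with a median of 0.28 (0.38 with large cells, -0.35 with T cells inside the gene limit). Ccnb2, a mitotic cyclin, was farthest out at 1.60 [0.52, 2.83] on 46 and 9 UMIs.

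Ribosome biogenesis genes differed by a small amount, mostly upward, in K CC. Of 20 nucleolar factors, 19 entered, 17 above the all-gene median and 2 below, none past 2-fold, with a median of 0.33 (0.31 with large cells, 0.17 after thinning to 2000 UMIs). The corresponding medians were -0.05 in C and 0.18 in CK. Npm1, nucleophosmin, had 1036 and 805 CPM, 0.33 [0.23, 0.43]. Ncl, nucleolin, had 489 and 510 CPM, which became 0.26 [0.12, 0.40] relative to T cells. Nop56, a core protein of the methylation-guiding small nucleolar ribonucleoproteins, had 63.9 and 43.7 CPM, 0.60 [0.17, 1.04], and Utp4, at 0.76 [-0.10, 1.66], and Nop16, at -0.49 [-0.90, -0.08], stood farthest from the list median. In trans CB-CC the list median was 0.17 (-0.00 with large cells), and in CB -0.00. Other genes among the 10 highest in CC act on nucleotides. Gart, an enzyme of purine synthesis, had 45.9 and 29.0 CPM, 0.97 [0.44, 1.52], and Dctpp1, which hydrolyses dCTP, had 61.9 and 29.0 CPM, 0.94 [0.44, 1.46]. With large cells these were 0.80 and 0.79, and after thinning to 2000 UMIs 1.08 and 0.40. The remaining ones were Tsen54, a subunit of the tRNA splicing endonuclease (1.38, and 0.27 with non-GC B cells as the reference), Copg1, of the COPI coat (0.98), Mum1 (0.98), Smpd1, acid sphingomyelinase (0.94), and Gm42031, described with the genes whose value the T cells set.

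The 10 lowest genes of K CC among those with at least 100 UMIs in CC and in T cells were led by Pecam1 and Tec, and none of them was past 2-fold. Pecam1 (chr11:106654217-106750628), an adhesion receptor with inhibitory motifs in its tail, had 17.2 CPM in K (43 UMIs) and 44.3 in WT (81 UMIs), against 39.8 in C and 27.3 in CK. The value was -0.97 [-1.56, -0.39], and -0.93 with large cells. Thinned, 4.10% of K CC (2.64 to 6.03) and 10.5% of WT CC (7.60 to 14.1) held a Pecam1 UMI, so here fewer cells were positive. Unthinned these were 6.87% and 19.1%, and in T cells, which hold the gene, 12.4% and 15.1% when thinned. Tec, the founding kinase of the family that includes BTK, had 21.97 and 65.1 CPM, and 67.4 in C and 54.3 in CK, with -0.90 [-1.49, -0.32] (-0.84 with large cells). Kdm2a, a demethylase of histone H3 lysine 36 that binds CpG islands, had 44.3 and 95.7 CPM, and 83.9 in C and 84.6 in CK, with -0.81 [-1.22, -0.41] (-0.84 with large cells). For all 3 genes K CC had the lowest CPM of the 4 libraries, a rank taken before the T cell ratio is subtracted. Pecam1 was lowest in K in T cells as well (59.2 CPM, against 78.1 in WT, 70.3 in C and 68.1 in CK). So it was in non-GC B cells (96.5, against 156, 145 and 125 CPM). Relative to T cells, thinning to 2000 UMIs gave -1.16, -1.36 and -0.49 for Pecam1, Tec and Kdm2a. The other 7 were Ncoa7 (-0.90), Ap3s2 (-0.89), Cdca4 (-0.87), Fam149b (-0.83), Dmac2 (-0.82), the mitochondrial fission GTPase Dnm1l (-0.82) and the COPII coat gene Sec31a (-0.80), and with large cells they lay between -0.80 and -0.66.

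Members of the Gimap family, GTPases of lymphocyte survival, mostly lay below the all-gene median in K, by amounts that depended on which cells and UMIs were counted. All 8 members entered in CC and trans CB-CC and 7 in CB, and 7, 8 and 7 of them were below the all-gene median. The medians were -0.23 in CC, -0.26 in trans CB-CC and -0.64 in CB, against 0.02, 0.03 and 0.02 over all genes. Gimap4 in CB was the member past 2-fold (-1.09 [-1.74, -0.42]), where 0.569% of all genes were lower by that much. With large cells these medians were -0.21, -0.07 and -0.16, and thinning to 2000 UMIs took the CC median to -0.01, that of trans CB-CC to -0.23 and that of CB to -0.43. Gimap6, the member described here for its many UMIs, had 147 CPM in K CC and 200 in WT CC, with 193 in C and 147 in CK. It had 130 and 211 CPM in trans CB-CC, with 169 in C and 113 in CK, and 81.6 and 130 in CB, with 113 in C and 65.6 in CK. In each subtype K and CK lay below WT and C. Relative to T cells Gimap6 was -0.46 [-0.68, -0.23] in CC, -0.71 [-0.90, -0.53] in trans CB-CC and -0.69 [-1.005, -0.36] in CB, and with large cells -0.57, -0.54 and -0.52. T cells hold more of it (367 CPM in K and 363 in WT), while T cell markers summed to slightly more in K than in WT in CC (204 and 192 CPM), in trans CB-CC (115 and 102 CPM) and in CB (91.0 and 82.1 CPM).

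The proliferation lists of trans CB-CC and CB depended on which cells were counted. All 26 S phase genes entered in trans CB-CC, all above the all-gene median of 0.03, with a median of 0.68 and 5 past 2-fold (1.3% of all genes were). In CB 25 entered, all above, with a median of 0.73 and 4 past 2-fold (2.29%). With large cells the medians were -0.01, with 9 of 26 above, and 0.18, with 20 of 26 above. G2M genes gave 0.57 and 0.59, with 19 of 20 and 19 of 21 above, and -0.16 and 0.16 with large cells. With T cells inside the gene limit as the reference, G2M gave -0.29 and 0.00. The dark zone list went likewise from 0.55 and 0.41 to -0.13 and 0.21. A larger share of WT than of K cells lay above the limit, and a difference between named cells cannot be told apart from that difference in which cells are named. C and CK, where 20.2% and 6.78% of the enlarged trans CB-CC set were large cells, had S phase medians of 0.41 and 0.39 there before the addition.

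Single genes showed the same. Rrm2, the regulated subunit of ribonucleotide reductase, had 74.3 CPM in named K trans CB-CC and 30.6 in WT, 1.62 [1.21, 2.05]. With large cells the levels were 185 and 257 CPM and the value -0.14 [-0.36, 0.09]. Pclaf, a PCNA-binding protein, had 356 and 147 CPM (265 in C, 408 in CK), 1.35 [1.15, 1.55], and -0.23 [-0.36, -0.10] with large cells. Cdk1 and Psmc3ip went from 1.39 and 1.33 to -0.14 and -0.13. Less reduced was Mcm2, which kept 0.53 [0.27, 0.80] in trans CB-CC and 0.52 [0.24, 0.81] in CB, from 1.11 and 0.94. Nudcd1, which is outside the cycle lists, was at 1.32 in trans CB-CC and 1.04 with large cells. Others among the 10 highest were Cenpk, Cdc6 and Ncapg2 in trans CB-CC, at 1.65, 1.46 and 1.35 (0.66, 0.10 and 0.36 with large cells), and in CB Cenpk, Ncapg2 and Ncaph, at 1.65, 1.71 and 1.63 (0.81, 0.39 and 0.40), with Zdhhc2, Nudt4 and Rnf11 at 1.78, 1.53 and 1.51 (0.96, 0.50 and 0.84).

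**Figure D4:**
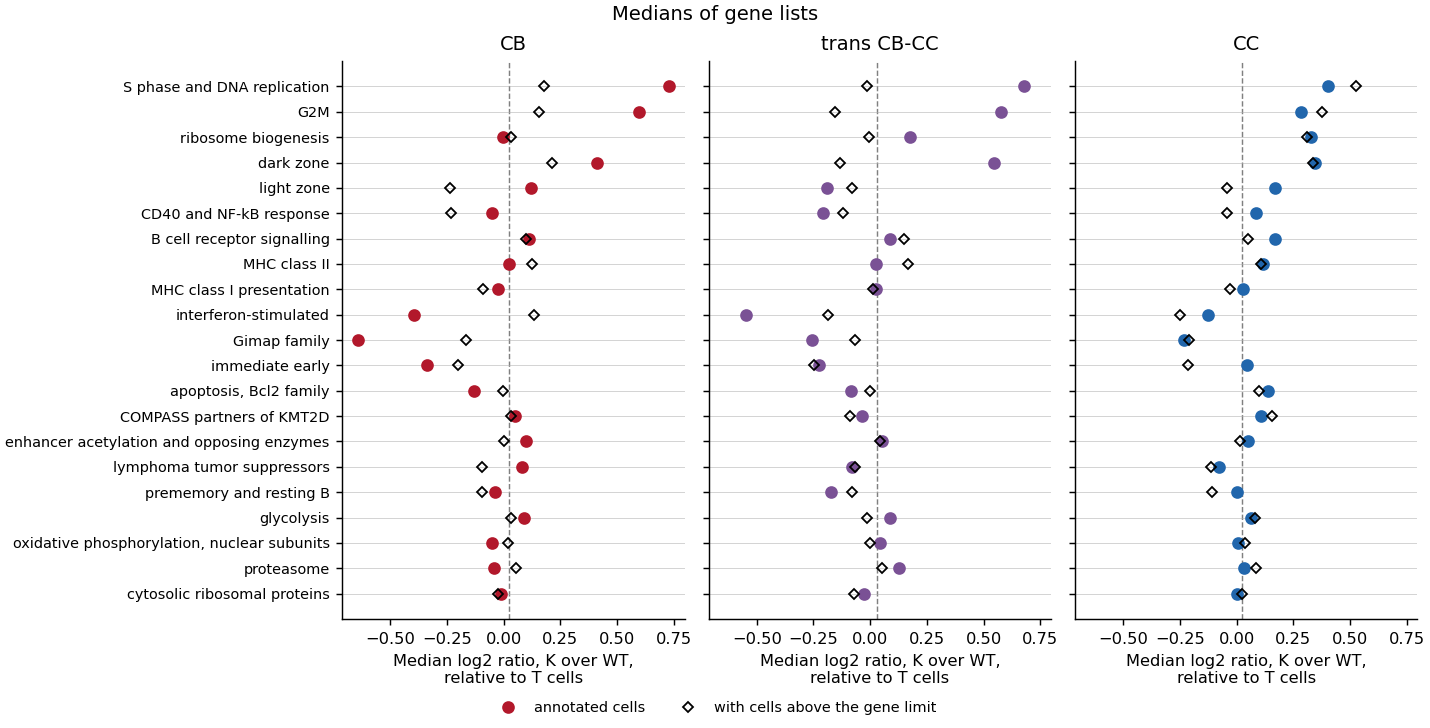
Median log2 ratio of K over WT relative to T cells (x) for 21 gene lists (y) in CB, trans CB-CC and CC, with filled circles for named cells and open diamonds with large cells added. The dashed line is the all-gene median. S phase and G2M lists lie far to the right for named CB and trans CB-CC and close to the line once large cells are added, while in CC both symbols of S phase and ribosome biogenesis lie to the right.

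Of 20 interferon-stimulated genes, 9 entered in trans CB-CC, all below the all-gene median, with a list median of -0.55. With large cells this was -0.18 and after thinning to 2000 UMIs -0.03, and the CB and CC medians were -0.40 and -0.13 (0.14 and -0.25 with large cells). Irf7 (chr7:141262706-141266481), the factor that amplifies type I interferon, was the member past 2-fold, where 0.46% of all genes were lower by that much. It had 21.9 CPM in K (111 UMIs) and 39.2 in WT (96 UMIs), with 35.1 in C and 22.3 in CK, so K and CK lay together. Thinning to 2000 UMIs gave -1.06. T cells differed the other way, by 0.50, which made -0.84 as counted into -1.34 [-1.80, -0.88], and large cells brought it to -0.73 [-1.11, -0.35]. Stat2, which carries the interferon signal, was at -0.59 [-1.31, 0.13] and Isg15, a ubiquitin-like modifier, at -0.60 [-1.23, 0.05]. Outside the list, Trim30a, an interferon-induced regulator of inflammatory signaling, was among the 10 lowest genes at -0.98 (-0.67 with large cells). Ifi27l2a, the member with the most UMIs, had 275 and 212 CPM and -0.08 [-0.24, 0.08].

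The lowest gene of trans CB-CC with at least 100 UMIs was Tbxa2r, the thromboxane A2 receptor, with 9.85 CPM in K and 28.1 in WT (17.1 in C, 7.90 in CK), -1.41 [-2.02, -0.80], and -0.90 [-1.42, -0.39] with large cells. Ncf1, a subunit of the phagocyte NADPH oxidase, had 19.5 and 47.3 CPM (35.7 in C, 17.2 in CK), -0.97 [-1.54, -0.39], and -0.63 with large cells. Bcl2l11, which encodes the death-promoting BIM, had 21.1 and 39.2 CPM, -0.96 [-1.48, -0.43], and -0.54 with large cells. These 3 kept their sign with intervals that leave out 0. The other lowest genes were Zfp407 (-1.33, but 0.11 with non-GC B cells as the reference), Tax1bp3 (-1.19), Tmem63a (-1.07), Selenoo (-1.03) and Ganc (-0.97). Tax1bp3 differed more in T cells, where K was 0.85 higher, than as counted in trans CB-CC (-0.33). In CB the lowest by the same rule were Sidt2 (-1.17), Abtb1 (-1.15), Orai3 (-1.01), Arhgap1 (-0.99), Neu1 (-0.98), Nol8 (-0.97), Rnf130 (-0.97), D730003I15Rik (-0.95), Tgfbr1 (-0.93) and AB124611 (-0.93). Of these, Arhgap1, Rnf130 and Tgfbr1 had an interval that leaves out 0 with large cells (-0.63, -0.59 and -0.49). Tgfbr1, the type I receptor for TGF-β, had 23.3 CPM in K CB and 48.8 in WT, 53.4 in C and 29.1 in CK.

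**Figure D5:**
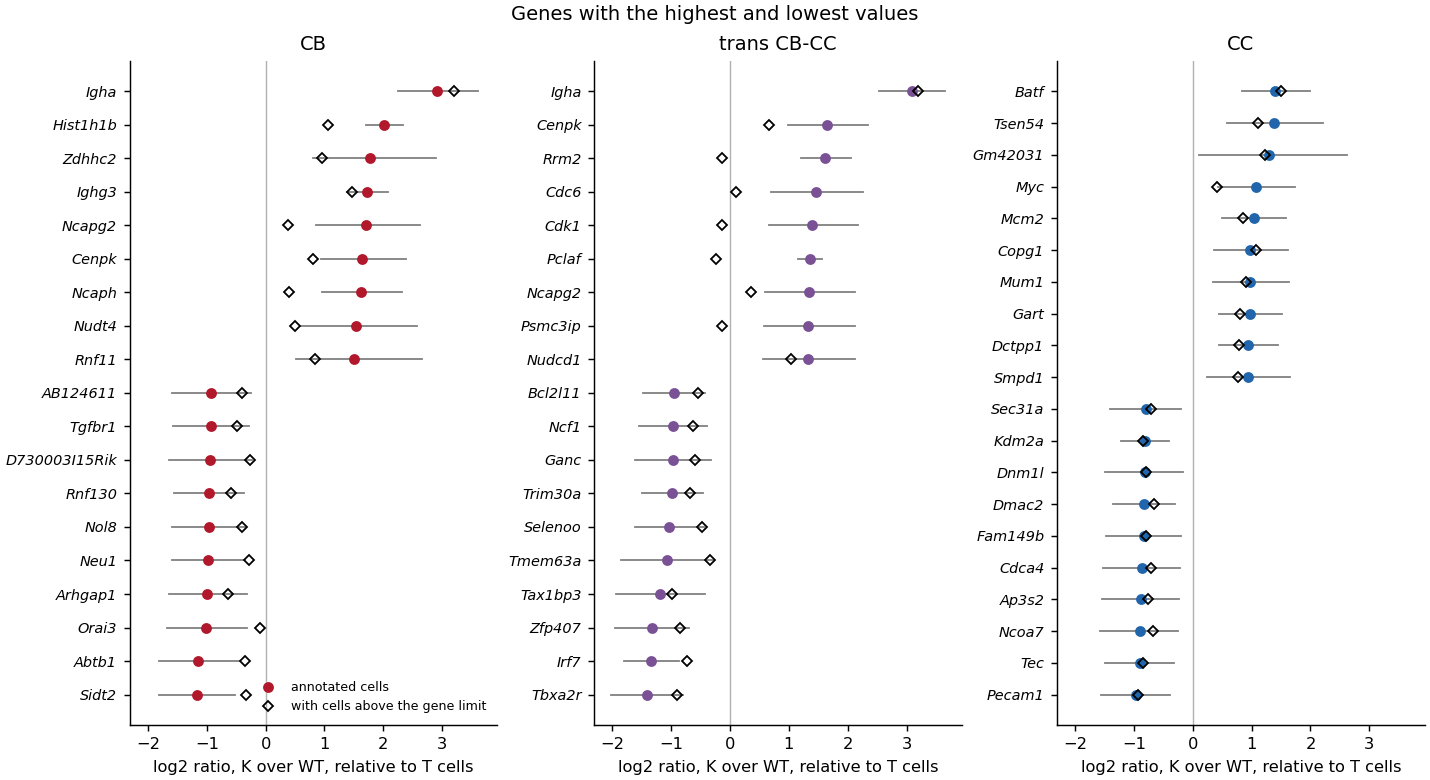
Log2 ratio of K over WT relative to T cells (x) of the highest and lowest genes in CB, trans CB-CC and CC (y; 10 on each side, other than a gene not reported here), with filled circles and 95% counting intervals for named cells and open diamonds with large cells added. In CC the diamonds other than that of Myc lie close to the circles, and in CB and trans CB-CC most diamonds of the highest genes lie nearer 0.

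For some genes the subtraction itself made the value, because K and WT T cells differed widely. Igha, the IgA heavy chain, had 25.6 and 24.1 CPM in trans CB-CC and 31.3 and 33.3 CPM in CB, so 0.09 and -0.09 as counted. A T cell ratio of -3.00 turned these into 3.09 and 2.91, and T cells with at least 3 Cd3 UMIs and no B cell UMI gave -0.34 and -0.52. The Igha levels in GC B cells themselves were thus close. Hist1h1b, a linker histone, had 178 CPM in K CB and 499 in WT CB (1207 in C, 1475 in CK), -1.49 as counted, and a T cell ratio of -3.50 gave 2.02. Gm42031, a predicted gene, had 10.8 and 45.4 CPM in CC, -2.07 as counted and 1.30 relative to T cells. Replication-dependent histones as a list had a CB median of 1.06 relative to T cells and -1.15 as counted, so their direction depends on the reference. Ighg3, a switched isotype, was higher in CB with and without the subtraction, with 329 CPM in K and 148 in WT (221 in C, 205 in CK), 1.16 as counted, 1.73 [1.39, 2.07] relative to T cells and 1.47 with large cells. After thinning to 2000 UMIs Ighg3 was at 0.68. Of 8 heavy chain constant regions 6 entered in CC, all above the all-gene median, with a median of 0.50 that became 0.11 against non-GC B cells and -0.16 against T cells with at least 3 Cd3 UMIs and no B cell UMI.

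MHC class II genes, through which CCs present antigen, had medians of 0.12 in CC (6 above and 5 below of 11 that entered, from a list of 15), 0.03 in trans CB-CC (7 and 8) and 0.02 in CB (8 and 7), none past 2-fold. C had -0.09, -0.22 and -0.12 in these subtypes, and CK -0.12, -0.37 and -0.35. H2-Ab1, the class II beta chain, had 3202 CPM in K CC and 2703 in WT CC, 0.12 [0.02, 0.21]. Ciita, the master regulator of class II, had 152 and 217 CPM, -0.10 [-0.49, 0.30]. Among the list genes that did not enter in CC were Cd74, H2-Aa and H2-Eb1, too low in T cells for the comparison. As counted these were at -0.00, 0.08 and 0.17 in CC.

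B cell receptor signaling genes had a CC median of 0.17 (15 of 23 above, 0.05 with large cells). Cd79a and Cd79b, the receptor's signaling pair, gave 0.22 [0.14, 0.30] and 0.24 [0.15, 0.33]. Farther out were Fcgr2b, the inhibitory Fc receptor, at 0.51 [0.07, 0.95], and Vav1, a guanine exchange factor, at -0.39 [-0.75, -0.03]. Myc and Batf were the light zone members past 2-fold in CC, where that list had a median of 0.17 (7 of 12 above, -0.04 with large cells) and 0.756% of all genes were higher by that much. In trans CB-CC the light zone list was at -0.19, with 12 of 14 below the all-gene median (-0.08 with large cells), and in CB at 0.12 (-0.24 with large cells). The CD40 and NF-kB response had 0.09 in CC (7 of 13 above), -0.21 in trans CB-CC (4 of 15 above) and -0.05 in CB, with Nfkbia, the NF-kB inhibitor, at -0.08 [-0.29, 0.12]. Follicle positioning receptors had -0.07 (4 of 10 above), with Rgs2, a regulator of G protein signals, at -0.78 [-1.35, -0.22] and S1pr4, a sphingosine phosphate receptor, at -0.88 [-1.72, -0.04]. The COMPASS partners of KMT2D gave 0.11 in CC (5 of 9 above), -0.04 in trans CB-CC (5 of 13) and 0.05 in CB (6 of 11). Its paralog Kmt2c was at -0.31 [-0.90, 0.27] and Kmt2a at -0.24 [-0.51, 0.04] in CC, although as counted these 2 genes were at -1.34 and -1.31. Lymphoma tumor suppressors had a CC median of -0.08 (2 of 10 above), with B2m, the MHC class I light chain, at -0.21 [-0.34, -0.09] and Klf2 at -0.14 [-0.37, 0.10]. Oxidative phosphorylation, proteasome and cytosolic ribosomal protein lists had medians of 0.01, 0.03 and -0.00 in CC, with 29, 24 and 25 genes entered. As counted, the short ribosomal protein messages gave 0.26. Immediate early genes had a CC median of 0.05 (5 of 9 above, -0.21 with large cells), and Bcl2 family and other apoptosis genes 0.14 (9 of 13 above).

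Genes whose T cell level was under 1 part in 10 of the subtype's, among them B lineage and cell cycle genes, were not set against T cells, and for these the trend of the T cell ratio with transcript length was subtracted. Fcer2a, the low-affinity IgE receptor CD23, had 137 CPM in K CC and 246 in WT CC, with 278 in C and 108 in CK, and a value of -0.92 [-1.13, -0.72]. Against non-GC B cells it was -0.45 [-0.71, -0.18], so K non-GC B cells were lower as well. The few Fcer2a UMIs in T cells, 10.3 CPM in K and 19.5 in WT, differed by -0.92 too, and relative to them CC was at 0.08 [-0.38, 0.55]. Sema7a, a semaphorin that binds integrins, had 28.4 and 56.3 CPM, -0.66 [-1.11, -0.21], and Cdkl1, a kinase related to the cell cycle kinases, 13.6 and 38.8 CPM, -1.48 [-2.12, -0.87]. On the higher side were Cd83, which stabilizes class II at the surface, with 572 and 421 CPM, 0.63 [0.50, 0.75], and Pxdc1, 0.55 [0.18, 0.92]. Cd83 against non-GC B cells was 0.11 [-0.15, 0.38], and its T cell ratio was 0.50. In trans CB-CC, Cyp4f18, a fatty acid hydroxylase, had 99.5 and 144 CPM, -0.50 [-0.70, -0.30]. In CB, the spindle gene Aspm was at -0.97 [-1.29, -0.64], with a T cell ratio of -1.57, and the mitotic kinesin Kif2c at 0.49 [0.06, 0.93].

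Early CB and prememory cells gave wider intervals. In early CB, on 38 WT cells, 116 of 3406 genes were higher (3.41%) and 24 lower (0.705%), and 9 and 3 of these stayed past 2-fold with large cells. There the light zone list stood at -0.58 (4 of 11 above the all-gene median, -0.89 with large cells) and the CD40 and NF-kB response at -0.55 (3 of 10 above, -0.75 with large cells). Recycling cells, 8 in WT, are not described. In prememory cells, where GC B markers summed to 226 CPM in K and 127 in WT, T cell markers to 166 and 77.6 and plasma cell markers to 726 and 488, 9 of 2363 were higher (0.381%) and 24 lower (1.02%), and 3 and 17 of these stayed. Raly, an RNA-binding protein, had 84.5 and 168 CPM in prememory cells, -1.15 [-1.86, -0.49]. Tpi1, the glycolytic triosephosphate isomerase, had 112 and 165 CPM, -0.78 [-1.42, -0.17]. Coa3, Myo1e and Wdr1 were at -0.91, -0.87 and -0.78. The highest with at least 100 UMIs was Stmn1, a microtubule destabilizer of dividing cells, with 216 and 85.2 CPM, 0.98 [0.40, 1.57], and -0.86 with large cells, all of which came from WT. Sec11c, a signal peptidase subunit, had 335 and 161 CPM, 0.96 [0.52, 1.41], and kept 0.89, and Slc25a4, Cd38 and Npc2 were at 0.92, 0.86 and 0.82.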

How the data were processed

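Splenic B220+IgD- cells of 4 mice, 1 per genotype (WT, C, K and CK), were profiled by droplet 3′ single-cell RNA-seq. The authors deposited UMI counts per gene and barcode made with Cell Ranger (3.0.2 in the file headers, mm10 in the processing notes) and a cell table made in Seurat 4.0, with genotype, subtype, counts of UMIs and genes per cell and the percent of mitochondrial UMIs. Here the raw counts were summed per library and deposited subtype and divided by the total (CPM). Log2 ratios of K over WT have exact conditional binomial 95% intervals, and the T cell ratio was subtracted with intervals joined by square-and-add. Levels have exact Poisson intervals and shares of cells exact Clopper-Pearson intervals. All cover counting error only. K and WT are 2 of 4 libraries, each 1 sample, so no test was run. Named by rule were Kmt2d, Crebbp, the 10 highest and 10 lowest genes per main subtype (5 and 5 in prememory) with 100 UMIs in subtype and T cells and an interval leaving out 0, 5 and 5 genes with a T cell level too low to subtract, of which some are printed, and list members with the most UMIs or the values farthest out. Further helicase subunits and class II chains were chosen after their values were seen. The comparison and the gene lists were chosen with earlier results of these data known. Some genes the rule names are not reported here. Doublets were not called, and barcodes with 2 or more Cd3 UMIs that the table names (14 in K, 5 in WT) were kept. Scripts were tested on simulated data. Sums, intervals and neighbors were computed with pandas 2.3.3, scipy 1.17.1, numpy 2.4.6 and scikit-learn 1.9.0. Alternatives were another reference (non-GC B cells, T cells with 3 Cd3 UMIs and no B cell UMI, T cells inside the gene limit, the length trend), other filters, totals and centering, and thinning.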

Additional observations from a re-analysis of the deposited data

How the results depend on the processing

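No paired analysis was possible because each genotype is 1 library. For the same reason no library could be left out. Counts of genes past 2-fold were outside 1.5 times the first count in 58 of 130 cases. List medians shifted by more than the median half-width of their members' counting intervals in 50 of 999 cases, and named genes shifted in 92 of 987. A turned direction was scored only where the first value was past 2-fold, in 2 list cases and 16 named gene cases. Smaller values that changed sign, such as G2M in trans CB-CC with large cells, are not among those 2 and 16. As counted, without the T cell ratio, lower genes numbered 180 in early CB, 399 in CB, 563 in trans CB-CC, 418 in CC and 155 in prememory, and higher ones 79 in CB, 43 in trans CB-CC and 23 in CC. In CB the enhancer acetylation list was then at -0.83, dark zone at -0.05, G2M at 0.16, histones at -1.15, oxidative phosphorylation at 0.16 and ribosomal proteins at 0.28. In trans CB-CC these were -0.58, -0.06, an unshifted G2M, -1.55, 0.27 and 0.25, with MHC class I at -0.25, B cell receptor signaling at -0.30 and heavy chains at 0.05. In CC acetylation was at -0.69, dark zone at -0.28, histones at -0.95, prememory and resting genes at -0.46, oxidative phosphorylation at 0.24 and ribosomal proteins at 0.26. Crebbp was at -0.59, -1.10 and -0.69 in CB, trans CB-CC and CC, and rho with length at -0.45, -0.55 and -0.56. Hist1h1b in CB turned to -1.49, Igha in CB to -0.09 and Gm42031 in CC to -2.07. Subtracting the length trend instead gave 55, 117, 131, 110 and 62 lower genes in early CB, CB, trans CB-CC, CC and prememory and 25 higher in prememory, histones at -1.22, -1.60 and -0.91, ribosomal proteins at 0.21, 0.18 and 0.19 in CB, trans CB-CC and CC, glycolysis in CC at 0.29, Gm42031 in CC at -2.0 and Hist1h1b in CB at -1.61. With non-GC B cells as the reference, lower genes numbered 71 in CB, 52 in trans CB-CC, 47 in CC and 37 in prememory. Dark zone in CB was then at -0.23, histones at 0.34, heavy chains at 0.05 in CB, -0.02 in trans CB-CC and 0.11 in CC, the plasma cell program in CC at -0.09, Igha at -0.20 in CB and -0.02 in trans CB-CC, and Zfp407 in trans CB-CC at 0.11. T cells with at least 3 Cd3 UMIs and no B cell UMI gave 60 lower genes in CB and 31 in CC, 15 higher in prememory, G2M in CB at 0.03, heavy chains at 0.04, -0.08 and -0.16, and Igha at -0.52 and -0.34 in CB and trans CB-CC. T cells inside the gene limit gave 94 higher genes in CB and 34 lower in CC, G2M at 0.00 and -0.29 in CB and trans CB-CC, histones in CB at 0.02, heavy chains at 0.06 and 0.07, and Igha at -0.42 and -0.24. Centering on the median gave 14 higher genes in prememory, and leaving out cells with a Cd3 UMI gave 5. Thinning to 2000 UMIs gave 53 higher and 4 lower in early CB, 78 and 15 in CB, 52 and 22 in trans CB-CC, 28 higher in CC and 5 and 12 in prememory, G2M in CB at 0.11 and histones at 0.16 and -0.55 in CB and trans CB-CC. With a minimum of 20 UMIs higher and lower genes numbered 412 and 133 in early CB, 357 and 155 in CB, 259 and 119 in trans CB-CC, 201 and 107 in CC and 95 and 200 in prememory. With 1 UMI in each they numbered 799 and 903, 676 and 757, 664 and 653, 728 and 578, and 986 and 733. Large cells, added after the data were seen, gave 45 higher genes in CB, 38 in trans CB-CC and 15 higher and 70 lower in prememory, S phase at 0.18, G2M at 0.16 and histones at 0.29 in CB, and dark zone at -0.13, S phase at -0.01, G2M at -0.16 and histones at -0.49 in trans CB-CC. In trans CB-CC Psmc3ip turned to -0.13, Cdk1 to -0.14, Rrm2 to -0.14 and Pclaf to -0.23. Where no value shows it, the cause was not tested. With 183 WT CB and 145 WT prememory cells, genes under 50 UMIs were not compared.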
